A study of Mus musculus with 6 samples.

Results

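The genes described are the collagens, the laminins and a short list of other basement membrane and matrix genes in single cells of the adult mouse olfactory bulb. Members were every row of the count table whose symbol names a collagen chain or a laminin alpha, beta or gamma chain, together with Fn1, Nid1, Nid2, Hspg2, Agrn, Sparc, Sparcl1, Dcn and Lum. The rule found 62 of 18560 genes without using any measured value, and all 62 matched a RefSeq gene of the mouse assembly GRCm38.p6. By family they comprised 11 fibrillar collagens, 6 type IV chains, 5 type VI chains, 9 collagens that attach to fibrils, 3 network-forming collagens, 2 multiplexins, 3 transmembrane collagens, 3 other collagens, 11 laminin chains and the 9 listed genes.

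Cells were dissociated with papain from the olfactory bulbs of C57BL/6NJ mice 14 weeks of age, and 3′ ends of transcripts were counted with unique molecular identifiers (UMIs). There were 3 groups of 2 libraries, each from pooled animals: control libraries labelled as having no manipulation, libraries from mice whose naris was occluded on one side by a plug, and libraries from water-deprived mice trained to discriminate odours, each manipulation lasting 6 weeks. All mice were of the same strain and age, and the study's account of the control tissue is not uniform, since its text also refers to the open side of occluded mice. In every group replicate 1 held 1116 to 1201 UMIs of the Y-linked gene Ddx3y and at most 5 of Xist, and replicate 2 held 20000 to 27904 of Xist and 0 of Ddx3y, so the 2 libraries of a group came from different animals. Sex and replicate number cannot be told apart, and p-values measure the spread between these pools, which holds that difference too. The labels also state that some olfactory epithelium, which touches the front of the bulb, was included.

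A basement membrane is a thin sheet of matrix on which endothelial cells, pericytes, glial endfeet and meningeal cells rest. It is built from a laminin polymer and a type IV collagen network, which are tied together by nidogens and by the heparan sulfate proteoglycans perlecan and agrin. Fibrillar collagens and small proteoglycans such as decorin belong to looser connective tissue, which in the brain is found in the meninges and around larger vessels, while the olfactory nerve layer is bundled by olfactory ensheathing cells that lay matrix along axons.

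The table held 52549 cell barcodes, of which 51426 carried one of 38 clusters assigned by the authors. Libraries held 6705 to 10570 cells and 11841160 to 17065083 UMIs, with median UMIs per cell of 1028 to 1723.5 and a median mitochondrial share of 9.25% to 14.4%. The library with the fewest UMIs per cell and the highest mitochondrial share was trained replicate 1. Library identity was taken from the annotation, because the prefixes of cell names in the 2 trained libraries were exchanged against it, and cluster numbers were used as annotated although they differ within classes from those the study uses. Of the barcode sequences 1461 occurred in more than 1 library, with 65 to 144 shared between any pair of libraries.

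The 62 members together took 214350 UMIs, or 0.246% of all UMIs in annotated cells. Sparcl1, which encodes a matricellular protein secreted by astrocytes, took 39.2% of these, and Sparc, its collagen-binding relative, took 22.9%. Levels below are CPM, that is, UMIs of a gene scaled to a fixed total of the UMIs of a cluster in a library, given as mean ± SD over 6 libraries. A 3′ UMI count does not grow with transcript length, so levels of different genes were set side by side without dividing by length. Clusters were made from the same counts, so no test was run between them, and statements about order rest on the spread over libraries. Of the 62 members, 29 reached a mean of 100 CPM in some cluster and the other 33 had their highest cluster mean between 0.439 and 88.4 CPM. For 13 of the 29, the highest cluster lay above every other cluster in all 6 libraries. In 18 the gap between the first and second cluster was larger than the SD, and in 9 the 2 ranges did not overlap.

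**Figure D1:**
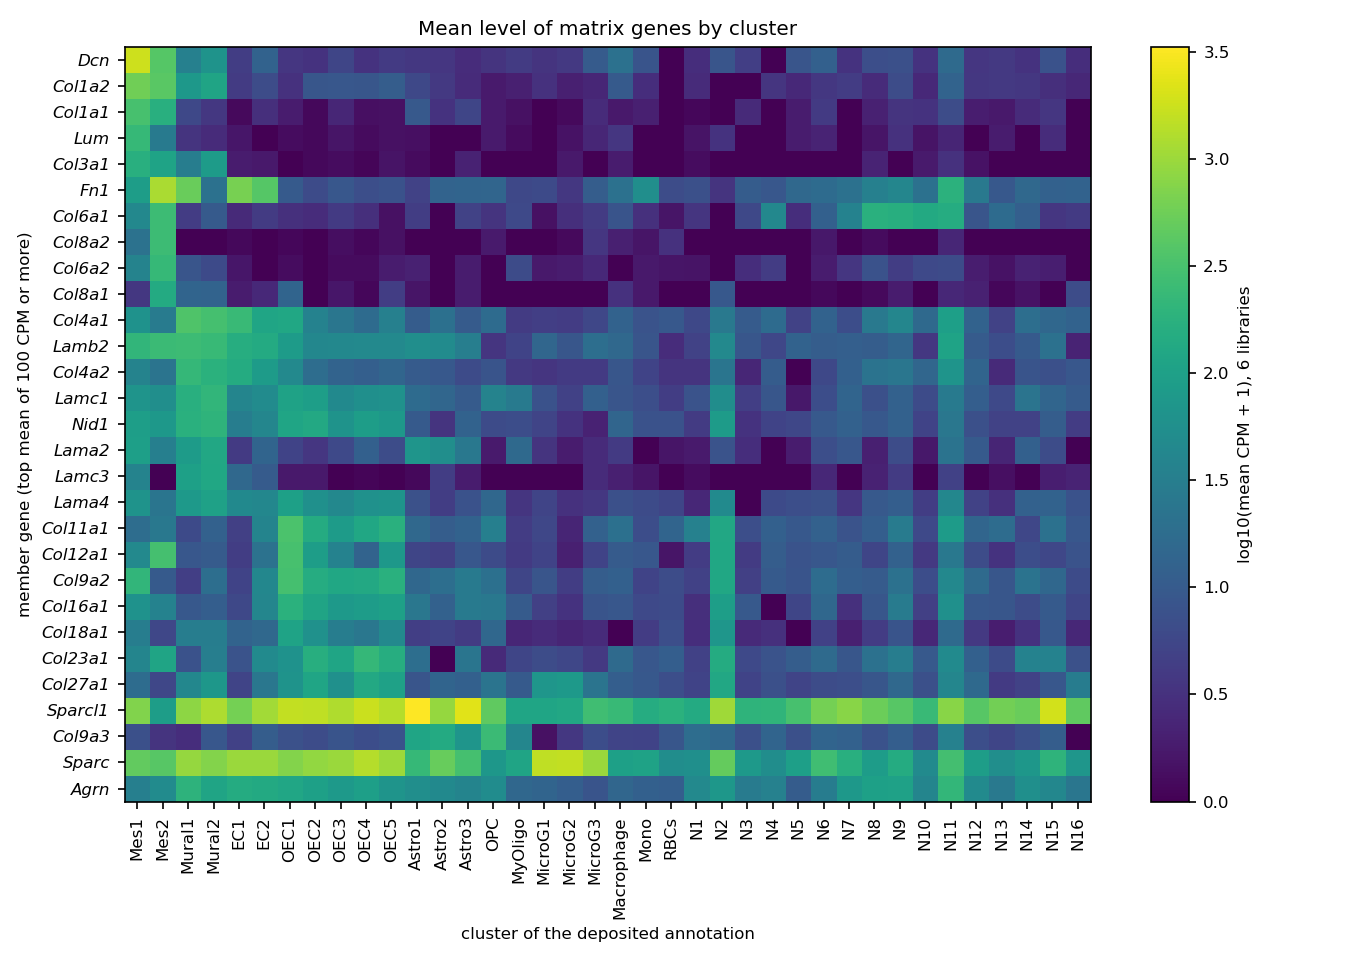
Level of the 29 members that reached 100 CPM (rows) in each of 38 clusters (columns), as colour on a scale of log10 of the mean CPM over 6 libraries plus 1. Col1a1, Col1a2, Col3a1, Dcn and Lum are bright in the mesenchymal clusters Mes1 and Mes2. Type IV collagens are bright in mural and endothelial clusters and laminins in mural clusters. Col11a1, Col9a2 and Col12a1 are bright in the ensheathing cluster OEC1, and Sparcl1 in 37 clusters.

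The highest cluster was mesenchymal for 22 members, mural for 13, olfactory ensheathing for 13, neuronal for 8, astrocytic for 2, oligodendrocyte precursor for 2, endothelial for 1 and microglial for 1. The endothelial member was Col6a6, with 4 UMIs in all cells. Col6a4, counted as neuronal, had 6 UMIs and Col10a1, counted as ensheathing, had 4, so the highest cluster of these members rests on very few counts. Among the 29 members at 100 CPM or more the highest cluster was mesenchymal for 10, mural for 8, ensheathing for 7 and 1 each for neurons, astrocytes, oligodendrocyte precursors and microglia. With Sparc and Sparcl1 left out, the remaining 60 members took 49.9 ± 8.25 of each 10000 UMIs in Mes1 and 44.9 ± 5.09 in Mes2 (SD, n = 6). The next clusters were Mural1 at 27.3 ± 2.31, OEC1 at 24.8 ± 1.02, Mural2 at 24.2 ± 2.73, the neuron cluster N11 at 16.8 ± 2.62 and the endothelial cluster EC1 at 16.8 ± 1.21, and red blood cells were lowest at 1.10 ± 0.822. The neighbours Mes1 and Mes2, and OEC1 and Mural2, differed by less than 1 SD. Mural1 lay above OEC1 and Mural2 by more than that, with overlapping library ranges.

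The mesenchymal class was small and its 2 clusters differed in their markers. It held 883 cells, or 1.72% of the annotated cells, with 96 to 189 in a library; Mes1 comprised 653 cells (median 1339 UMIs) and Mes2 comprised 230 (median 1857.5). Mes1 carried the markers of leptomeningeal fibroblasts, with Ptgds at 155022 ± 20696 CPM, Slc6a13 at 1174 ± 131, Igf2 at 1112 ± 132, Slc22a6 at 321 ± 47.2 and Pdgfra at 147 ± 31.3. In Mes2 the same markers stood at 18773 ± 10863 for Ptgds, 11.6 ± 9.54 for Slc6a13, 15.1 ± 9.69 for Igf2, 25.7 ± 21.7 for Slc22a6 and 31.0 ± 18.6 for Pdgfra. Ptgds was as high in mature oligodendrocytes, at 18550 ± 2888 CPM, so in Mes2 the mesenchymal name rested on few markers, and the cluster is called here by its annotated number. Dpt, a fibroblast marker, had no UMI in Mes1, and its UMIs in the mesenchymal class lay in Mes2.

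Decorin (Dcn, chr10:97479500-97518163), a small leucine-rich proteoglycan that binds collagen fibrils, was the member with the highest level in Mes1. Its CPM in Mes1 had a lowest, median and highest library value of 1121, 1859 and 2257, and in Mes2 the values were 81.4, 360 and 700. The ranges did not overlap, and the next cluster, Mural2, was at 62.8 CPM. Lumican (Lum, chr10:97565501-97572703), a relative of decorin whose gene lies beside it, had values of 105, 210 and 374 CPM in Mes1 against a mean of 27.7 ± 31.3 in Mes2. Mesenchymal cells held 86.4% of all Dcn UMIs and 87.0% of Lum UMIs. Over the 38 clusters, log2(CPM + 1) of Dcn and Lum had a Pearson r of 0.91 and a Spearman rho of 0.71, a description over clusters drawn from the same libraries.

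Type I and type III collagens, which form the fibrils of loose connective tissue, had the same order. Col1a2 (chr6:4505618-4541543), encoding the alpha 2 chain of type I collagen, had lowest, median and highest values of 533, 561 and 677 CPM in Mes1 and 255, 461 and 537 in Mes2. Col1a1 (chr11:94936224-94953042), the alpha 1 chain, had values of 247, 308 and 405 CPM in Mes1 and 110, 165 and 239 in Mes2. Mes1 was above Mes2 in all 6 libraries for both chains, with overlapping ranges for Col1a2 only. Col3a1, the type III chain, stood at 166 ± 52.6 CPM in Mes1, 110 ± 27.4 in Mes2 and 83.7 ± 28.7 in Mural2, and the ranges of these 3 clusters overlapped.

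The type I chains were not counted in equal numbers. Mesenchymal cells had 2.02 ± 0.29 Col1a2 UMIs for each Col1a1 UMI (SD, n = 6), while astrocytes, with 31 and 63 UMIs in all, had 0.58 ± 0.42. In Mural2, which carried the pericyte marker Rgs5 at 3600 CPM, Col1a2 was at 114 ± 26.8 CPM while Col1a1 was at 2.72. Mesenchymal cells held 80.2% of Col1a1 UMIs, 69.3% of Col1a2 UMIs and 68.1% of Col3a1 UMIs, and mural cells held 25.2% of Col3a1 UMIs.

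A second group of members was highest in Mes2. Fibronectin (Fn1, chr1:71585473-71653280), a dimeric adhesion glycoprotein, had lowest, median and highest values of 660, 1275 and 1712 CPM in Mes2 and a mean of 91.0 ± 50.1 in Mes1. Col8a2 and Col8a1, which encode the chains of the short-chain, network-forming type VIII collagen of endothelial and corneal basement membranes, stood at 258 ± 66.6 and 140 ± 75.9 CPM in Mes2 and at 20.4 ± 13.3 and 2.77 in Mes1. Mesenchymal cells held 93.1% of Col8a2 UMIs and 49.2% of Col8a1 UMIs. The ranges of Mes2 did not overlap those of the second cluster for either type VIII chain.

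Type VI collagen, a beaded microfibril built from an alpha 1, an alpha 2 and a larger alpha 3 chain, had its highest levels in Mes2 for the first 2 chains. Col6a1 (chr10:76708792-76726044) had lowest, median and highest values of 189, 253 and 344 CPM there, Col6a2 (chr10:76595756-76623630) had 198, 227 and 278, and Col6a3 averaged 33.2 ± 41.5 there and 21.7 ± 4.90 in Mes1, which did not differ beyond their spread. Of the 147 Col6a3 UMIs, mesenchymal cells held 37.4% and microglia 32.7%. In mesenchymal cells the chains made up 48.0%, 42.0% and 10.0% of type VI UMIs in the same order. In neurons Col6a1 made up 94.7% ± 1.0 of them. Its level was 170 ± 33.1 CPM in the neuron cluster N8, 161 ± 18.99 in N9, 153 ± 67.2 in N11 and 138 ± 33.8 in N10, and 16.2 ± 3.65 in N13, while Col6a2 was at 6.70 ± 2.63 in N8. The partner chain was thus low in the neuron cluster with the most Col6a1. Col6a1 was seen in 13.7% of 3335 N8 cells (exact 95% interval 12.6 to 14.9) at a median of 879 UMIs, and in 2.39% of 2974 N13 cells at a median of 1561.5 UMIs.

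Detection per cell is given for genes that led these clusters. Dcn had at least 1 UMI in 58.2% of Mes1 cells (exact 95% binomial interval 54.3 to 62.0, counting error only) and in 20.9% of Mes2 cells, against 0.437% of N13 cells, neurons that should lack it. After each cell was thinned to 500 UMIs, which left out no cell of Mes1, 36.9% of Mes1 cells had a Dcn UMI. Fn1 was seen in 61.7% of Mes2 cells, 57.3% of EC1 cells and 1.31% of N13 cells. Col8a2 was seen in 39.6% of Mes2 cells and in 0 of 2974 N13 cells, which allows a share of up to 0.101% of cells with a UMI. A Mes1 cell had UMIs from a median of 4 of the 60 members without Sparc and Sparcl1, a Mes2 cell from 5, a Mural1 cell from 6, an EC1 cell from 2 and an N13 cell from 0.

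**Figure D2:**
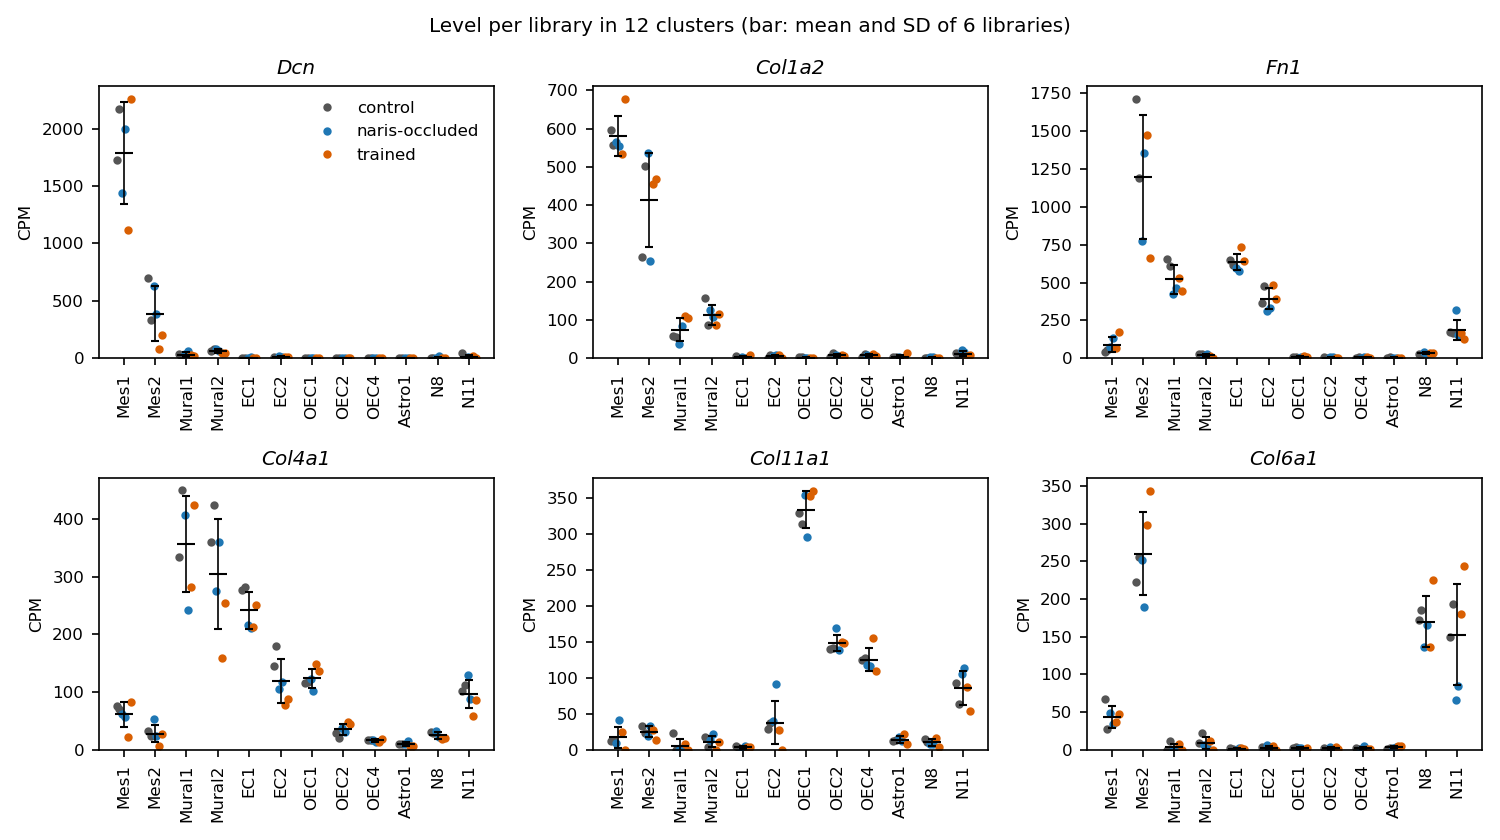
CPM of Dcn, Col1a2, Fn1, Col4a1, Col11a1 and Col6a1 in 12 clusters, with 1 point for each of 6 libraries and a bar for mean ± SD. The Dcn points of Mes1 lie between 1121 and 2257 CPM and those of Mes2 between 81.4 and 700, while Fn1 is highest in Mes2 and Col11a1 in OEC1.

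Type IV collagen forms the network of every basement membrane, and its 6 chain genes lie in 3 pairs of neighbours. The main vascular pair is Col4a1 (chr8:11198423-11312889) and Col4a2 (chr8:11312805-11449287), which are transcribed away from each other. Promoter windows of 300 bases around the starts of this pair and of Col4a5 and Col4a6 are shown because the data bear on how closely neighbouring chains were counted together. The sequences are RefSeq promoters of GRCm38.p6, each written 5′ to 3′ on the strand of its own gene. Capitals mark GGGCGG or its reverse complement CCGCCC, the core of the GC box, and CCAAT or its reverse complement ATTGG. These motifs do not overlap.
Col4a1 promoter, chr8:11312777-11313076, minus strand: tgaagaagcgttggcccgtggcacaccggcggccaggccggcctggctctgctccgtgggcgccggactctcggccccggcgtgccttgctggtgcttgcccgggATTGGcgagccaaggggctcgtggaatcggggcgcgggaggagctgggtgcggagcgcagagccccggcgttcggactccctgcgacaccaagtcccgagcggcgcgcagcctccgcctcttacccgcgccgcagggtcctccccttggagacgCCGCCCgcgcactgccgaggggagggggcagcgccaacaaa
Col4a2 promoter, chr8:11312555-11312854, plus strand: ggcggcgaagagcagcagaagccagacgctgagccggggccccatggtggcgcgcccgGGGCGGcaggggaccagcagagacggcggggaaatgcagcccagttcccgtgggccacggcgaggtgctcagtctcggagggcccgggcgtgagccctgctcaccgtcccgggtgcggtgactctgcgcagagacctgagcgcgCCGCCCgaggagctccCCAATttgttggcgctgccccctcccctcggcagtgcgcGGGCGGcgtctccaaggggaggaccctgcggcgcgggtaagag
Col4a5 promoter, chrX:141475169-141475468, plus strand: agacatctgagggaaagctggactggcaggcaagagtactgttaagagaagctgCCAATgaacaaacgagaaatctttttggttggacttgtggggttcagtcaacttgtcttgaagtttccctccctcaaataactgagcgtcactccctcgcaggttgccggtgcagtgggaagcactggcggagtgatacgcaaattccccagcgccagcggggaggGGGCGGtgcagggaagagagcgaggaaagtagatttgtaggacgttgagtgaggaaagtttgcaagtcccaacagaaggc
Col4a6 promoter, chrX:141474027-141474326, minus strand: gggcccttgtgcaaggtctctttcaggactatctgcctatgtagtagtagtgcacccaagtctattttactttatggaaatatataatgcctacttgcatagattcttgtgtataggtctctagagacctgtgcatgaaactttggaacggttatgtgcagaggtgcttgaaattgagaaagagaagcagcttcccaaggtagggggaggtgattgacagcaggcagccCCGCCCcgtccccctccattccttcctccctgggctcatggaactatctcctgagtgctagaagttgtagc
The starts on which the windows of Col4a1 and Col4a2 were placed (11312826 and 11312805) were 21 bases apart on opposite strands, and the windows shared 78 bases. Those of Col4a5 and Col4a6 (141475419 and 141474076) were 1343 bases apart and their windows shared none. For Col4a1, Col4a5 and Col4a6 these starts differ from the outer ends of the RefSeq genes, so distances between the genes themselves are not the same. The GC content was 74% and 73.7% in the first pair and 52.7% and 48.3% in the second. GGGCGG in either direction occurred 1 time in Col4a1, 3 times in Col4a2 and 1 time each in Col4a5 and Col4a6, and it was found in 35.7% of 32851 promoter windows. CCAAT in either direction occurred 1 time in each window except that of Col4a6 and was found in 37.4% of all windows, while TATAAA or its reverse complement TTTATA, found in 13.6%, was in none of the 4. The GC box core of the Col4a1 window lies in the bases shared with the Col4a2 window. It is the last of the 3 counted there, read on the other strand, so that site was counted in both windows. A match is a description of these letters only.

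Both chains of the first pair were highest in mural and endothelial cells. Col4a1 had lowest, median and highest values of 242, 370 and 450 CPM in Mural1, a mean of 305 ± 95.04 in Mural2, 242 ± 32.6 in EC1 and 124 ± 16.6 in OEC1. Col4a2 had values of 165, 206 and 292 CPM in Mural1 and means of 176 ± 40.6 in Mural2, 148 ± 32.0 in EC1 and 45.1 ± 4.73 in OEC1. Mural1 was above Mural2 in all 6 libraries for Col4a2 and in 4 of 6 for Col4a1, with overlapping ranges and a gap smaller than the SD of Mural1 for both chains. Mural1 held 158 cells, 11 to 42 in a library, and it carried mural markers summing to 5395 CPM, endothelial markers summing to 6131 CPM and red blood cell markers at 6589 ± 15955 CPM (SD), whose part in these levels was not tested. Endothelial cells held 34.2% of Col4a1 UMIs and 36.5% of Col4a2 UMIs.

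The chains of the first pair followed each other over clusters more closely than those of the other pairs did. Over 38 clusters, log2(CPM + 1) of Col4a1 and Col4a2 had a Pearson r of 0.95 and a Spearman rho of 0.91, against 0.77 and 0.63 for Col4a5 and Col4a6 and 0.51 and 0.42 for Col4a3 and Col4a4. The pairs differed in depth, with 3758 and 2188 UMIs in the first, 476 and 71 in the second and 78 and 232 in the third, and the part of depth in these values was not tested. The number of Col4a1 UMIs for each Col4a2 UMI was 1.61 ± 0.13 in endothelial cells, 1.70 ± 0.19 in mural cells, 1.44 ± 0.18 in neurons and 2.33 ± 0.31 in ensheathing cells (SD, n = 6).

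The less common chains had another distribution. Col4a5, a chain of the glomerular and smooth muscle networks, had its highest level of 86.5 ± 13.5 CPM in Mes1, and Col4a6, its partner, was at 24.8 ± 4.65 there. In mesenchymal cells type IV UMIs were divided into 35.6% Col4a5, 31.7% Col4a1, 18.9% Col4a2 and 10.5% Col4a6. In endothelial cells Col4a1 and Col4a2 made up 60.7% and 37.7%, and in ensheathing cells 56.0% and 24.4% with 10.5% from Col4a5 and 7.8% from Col4a4.

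Laminins are trimers of an alpha, a beta and a gamma chain, and the alpha chain sets which receptors a laminin binds. The division of the alpha chains differed between ensheathing cells, endothelial cells and astrocytes. Mural and mesenchymal cells had the same order of Lama2 and Lama4, with close shares. Of alpha chain UMIs in ensheathing cells 88.9% ± 1.5 were Lama4 (chr10:38965515-39110188), the chain of vascular and peripheral nerve laminin, out of 1682 UMIs. In endothelial cells 48.5% ± 6.2 were Lama4 and 39.7% ± 5.2 were Lama5, the other chain of vessel walls, out of 546. In astrocytes 70.8% ± 8.6 were Lama2 (chr10:26981285-27617191), the chain of muscle and of the glial limiting membrane, out of 687. Mural cells had 44.2% ± 5.7 Lama2 and 37.7% ± 3.2 Lama4 out of 458, and mesenchymal cells had a pooled 50.3% Lama2, 34.3% Lama4 and 10.6% Lama1, a chain of embryonic and meningeal laminin, out of 312. Within 1 SD, the Lama2 share of astrocytes and the Lama4 share of ensheathing cells did not overlap the shares of the same chains in mural cells.

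The beta chain was mainly Lamb2 in each of these classes. It made up 96.6% of beta UMIs in endothelial cells, 95.6% in astrocytes, 86.7% in ensheathing cells, 81.7% in mesenchymal cells and 80.1% in mural cells. By level, Lamb2 was at 261 ± 76.7 CPM in Mural1, 251 ± 37.3 in Mes2 and 235 ± 42.8 in Mural2, which did not differ beyond their spread. The gamma chain was nearly all Lamc1 in ensheathing cells, at 99.2%, and in astrocytes, at 94.0%. Mural cells had 37.3% ± 5.9 Lamc3 and endothelial cells a pooled 24.2%. Lamc1 had lowest, median and highest values of 94.1, 223 and 277 CPM in Mural2, and Lamc3 stood at 125 ± 21.5 in Mural2, 98.5 ± 18.99 in Mural1, 14.3 in EC1 and 0.729 in OEC1. Mural cells held 55.3% of Lamc3 UMIs.

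**Figure D3:**
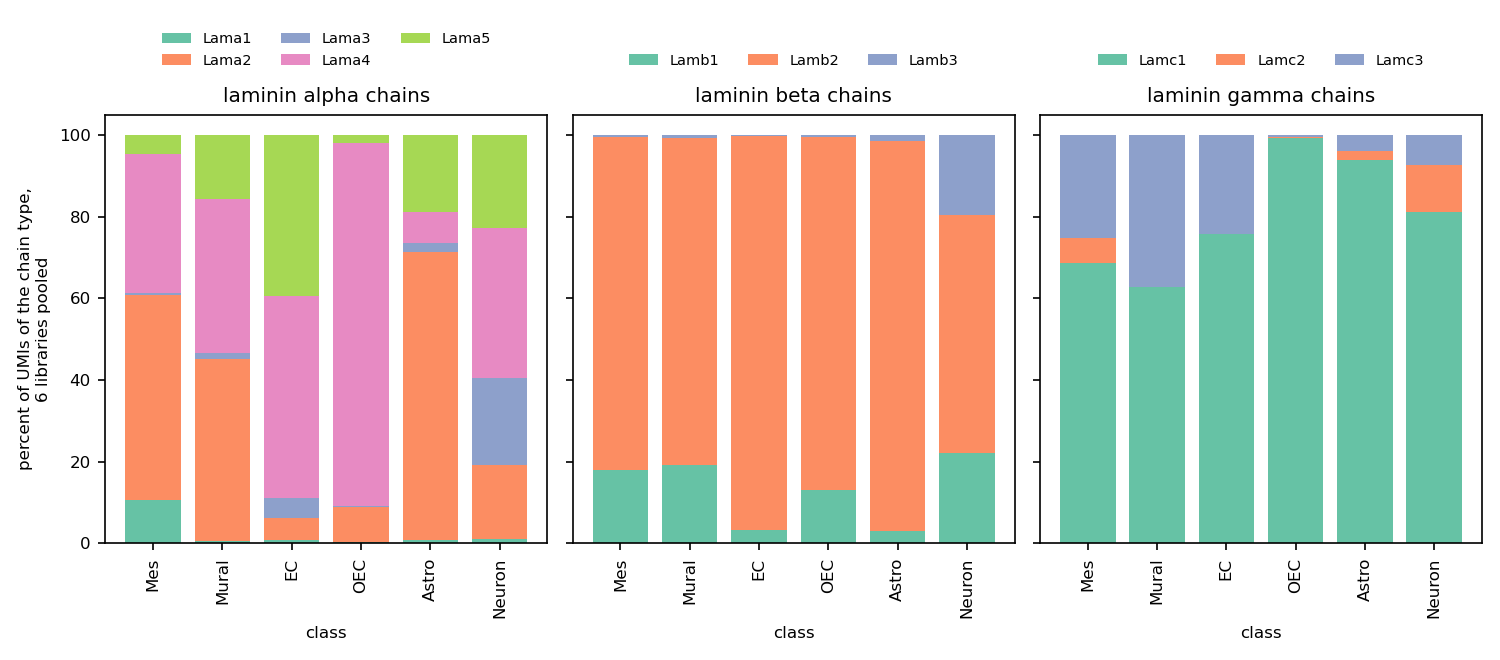
Share of laminin alpha, beta and gamma chain UMIs taken by each chain gene in mesenchymal, mural, endothelial, ensheathing, astrocytic and neuronal classes, as stacked bars of UMIs pooled over 6 libraries that each sum to 100%. Lama4 fills 89.0% of the alpha bar of ensheathing cells and Lama2 70.6% of that of astrocytes, Lamb2 is the largest part of every beta bar, and Lamc3 is visible in the mural, endothelial and mesenchymal gamma bars.

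Of the linkers of the 2 networks, nidogen-1 was highest in a mural cluster, and nidogen-2 and perlecan in an ensheathing one. Agrin is given below. Nidogen-1 (Nid1), which joins laminin gamma 1 to type IV collagen, had lowest, median and highest values of 167, 198 and 221 CPM in Mural2, with means of 174 ± 65.5 in Mural1, 131 ± 16.6 in OEC2, 118 ± 12.1 in OEC1 and 30.3 in EC1. Nid1 and Lamc1 had a Pearson r of 0.86 and a Spearman rho of 0.76 over the 38 clusters on the log2(CPM + 1) scale. Nid2, its relative, and Hspg2, which encodes perlecan, did not reach 100 CPM and were highest in OEC1, at 61.5 ± 13.2 and 73.3 ± 11.8 CPM. Hspg2 was at 62.6 ± 18.4 in EC1, within the spread of OEC1.

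Agrin (Agrn), a heparan sulfate proteoglycan of the neuromuscular junction and the vessel wall, was the member at 100 CPM or more whose highest cluster was annotated as neuronal. Its lowest, median and highest values in N11 were 174, 217 and 239 CPM, against means of 188 ± 29.8 in Mural1, 148 ± 13.1 in EC1 and 102 ± 8.06 in the neuron cluster N9. N11 and Mural1 overlapped. The 951 cells of N11 also carried endothelial markers, with all markers summing to 2861 ± 1149 CPM (Cldn5 1832, Flt1 476, Slco1c1 316), while the other neuron clusters had sums between 95.5 and 940 CPM. The neuron cluster N2, of 68 cells, had ensheathing markers at 19535 CPM, above its neuron markers at 2565. These markers' part in the neuronal levels of members was not tested. Fn1, which stood at 635 ± 55.5 CPM in EC1, was at 186 ± 66.3 in N11.

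Neurons therefore were counted with and without these 2 clusters, a choice made after the data were seen. Both shares are of all UMIs of a gene in annotated cells, those of N2 and N11 included. The second share could therefore only be lower, and the fall is no measure of how far the first depends on the 2 clusters. Neurons held 83.2% of Col6a1 UMIs, and those outside N2 and N11 held 66.2%. For Col24a1, a minor fibrillar collagen, the values were 90.9% and 64.4%, for Col7a1, the anchoring fibril collagen, 81.5% and 57.8%, and for Agrn 32.4% and 22.9%. Col24a1 had its highest level of 53.6 ± 14.7 CPM in N11 and stood at 38.9 ± 17.8 in N16, and Col7a1 was at 40.5 ± 10.2 in N11 and 26.2 in N9. Lamb3, a beta chain of epithelial laminin, was at 25.7 ± 2.83 CPM in N13 and 4.88 ± 3.40 in N12, and neurons held 81.2% of its UMIs.

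Olfactory ensheathing cells, the glia that wrap olfactory axons, held 65.7% to 79.8% of the UMIs of Col9a2, Col11a1, Col12a1, Col16a1, Col18a1, Col23a1 and Col27a1. Col11a1 (chr3:114030479-114220756), a fibrillar collagen that nucleates thin fibrils in cartilage, had lowest, median and highest values of 295, 341 and 360 CPM in OEC1, above 171 ± 29.1 in OEC5, 148 ± 11.4 in OEC2 and 126 in OEC4 in all 6 libraries. Col9a2, a type IX chain that decorates such fibrils, had values of 265, 300 and 337 in OEC1 and a mean of 209 ± 60.8 in Mes1. Col11a1 and Col9a2 had a Pearson r of 0.83 and a Spearman rho of 0.73 over the 38 clusters on the log2(CPM + 1) scale. Ensheathing cells, 22.5% of the cells, held 78.2% of Col11a1 UMIs and 79.8% of Col9a2 UMIs.

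Members differed in which ensheathing cluster was highest. Col12a1, a fibril-associated collagen of tendon and other dense tissue, was at 311 ± 22.4 CPM in OEC1 and 12.4 in OEC4, and its level in Mes2, 302 ± 72.0, was within its spread. Col16a1, another fibril-associated collagen, was at 175 ± 23.4 in OEC1 and 86.8 ± 10.6 in OEC4, and Col18a1, the source of endostatin, was at 111 ± 16.9 in OEC1. The order was the opposite for Col23a1, a transmembrane collagen, which had lowest, median and highest values of 200, 213 and 258 CPM in OEC4 and a mean of 62.6 ± 19.04 in OEC1. Col27a1, a fibrillar collagen of cartilage, was at 132 ± 10.0 in OEC4 and at 129 ± 89.9 in the mixed cluster N2. OEC1 was the highest cluster of 10 members and OEC4 of 2. OEC1 carried the endothelial marker Cldn5 at 3630 ± 304 CPM, Flt1 at 8.62 and Cdh5 at 2.35, and EC1 carried Flt1 at 1813 and Cdh5 at 354.

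The type IX chains were divided between glial types. Col9a2 made up 95.2% of type IX UMIs in ensheathing cells and 95.7% in mesenchymal cells. Col9a3, its partner in cartilage, made up 88.8% in oligodendrocyte precursors and 79.3% in astrocytes. By level Col9a3 had lowest, median and highest values of 202, 232 and 333 CPM in oligodendrocyte precursors, with means of 144 ± 27.4 in Astro2, 116 ± 14.2 in Astro1 and 6.56 in OEC1. The precursors did not overlap Astro2. Col11a2, a fibrillar partner of Col11a1, was also highest in oligodendrocyte precursors, at 78.9 ± 9.54 CPM.

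The 2 matricellular members were the most widespread. Sparcl1 (chr5:104079108-104114088) had lowest, median and highest values of 2917, 3392 and 3594 CPM in Astro1, with means of 2338 ± 316 in Astro3 and 1925 ± 319 in the neuron cluster N15, and it reached 100 CPM in 37 of 38 clusters. It had a UMI in 96.7% of Astro1 cells (median 1851.5 UMIs), in 57.4% of N13 cells and in 32.9% of red blood cells (median 3894 UMIs), which should lack it. Thinned to 500 UMIs, the shares were 76.3%, 26.4% and 6.39%, and how far free RNA accounts for them was not tested. Sparc (chr11:55394159-55420080) had values of 1405, 1543 and 1831 CPM in the microglial cluster MicroG2 and means of 1544 ± 206 in MicroG1 and 1374 ± 109 in OEC4. MicroG2 and MicroG1 did not differ beyond their spread. Macrophages and monocytes, the other myeloid classes, were at 100 and 107 CPM of Sparc, and the third microglial cluster, MicroG3, was at 974 ± 121 CPM.

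By total UMIs, the classes with the highest levels were not always the main holders of a member. Ensheathing cells held 43.6% of the UMIs of the 60 members without Sparc and Sparcl1, neurons 16.7%, mesenchymal cells 12.8%, endothelial cells 11.9% and mural cells 5.5%. Ensheathing cells held 66.6% of Nid1, 62.3% of Lama4, 55.5% of Lamc1 and 50.4% of Hspg2 UMIs. Endothelial cells held 56.0% of Fn1 UMIs, although its level was highest in Mes2. These shares combine the number of cells of a class that were captured with the UMIs per cell.

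**Figure D4:**
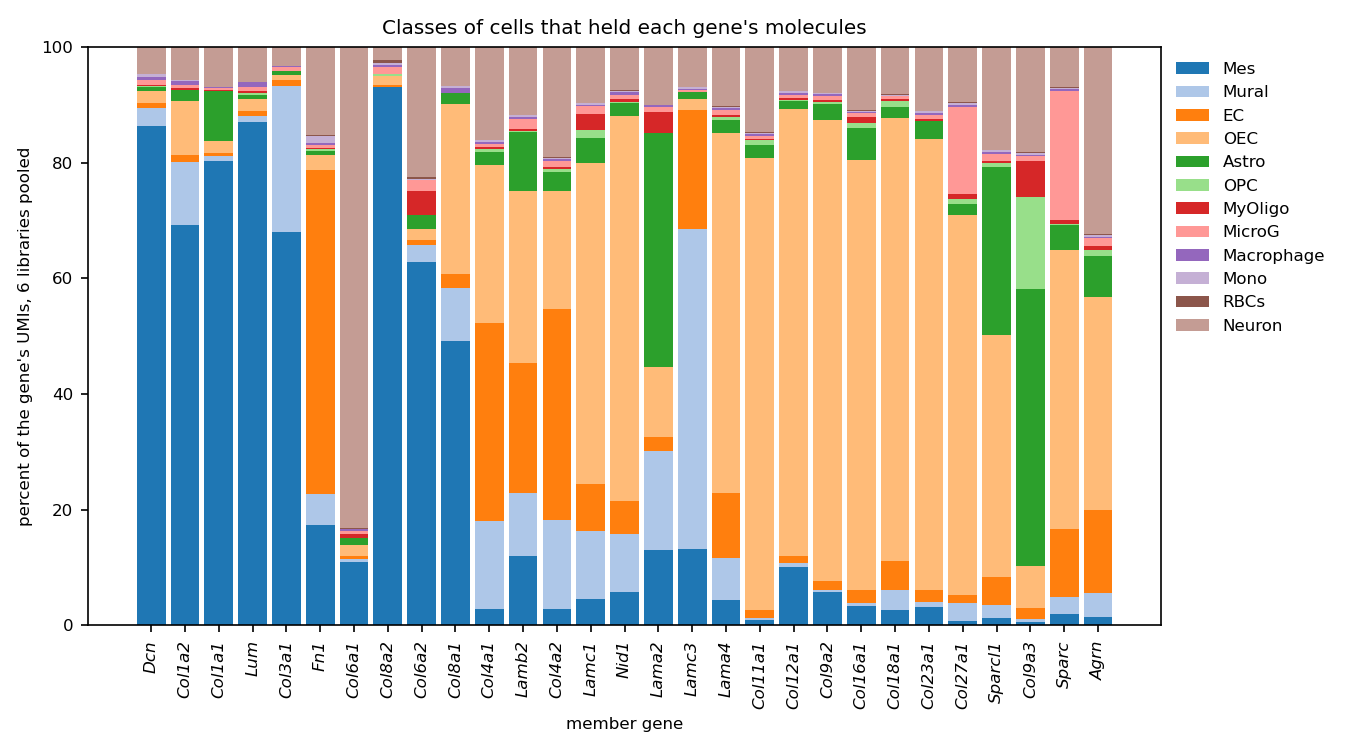
Share of each member's UMIs held by each of 12 cell classes, as stacked bars that sum to 100% over all annotated cells. Mesenchymal cells, 1.72% of the cells, hold 86.4% of Dcn and 93.1% of Col8a2, and ensheathing cells hold 78.2% of Col11a1 and 79.8% of Col9a2.

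Of the members below 100 CPM with at least 10 UMIs, 4 had a highest cluster mean more than 5 times the next, a description chosen after their values were seen. Col25a1, a transmembrane collagen, was at 88.4 ± 18.6 CPM in Mes2 and 10.5 in N12. Col13a1, another transmembrane collagen, was at 79.4 ± 25.3 in Mes1 and 3.03 in macrophages, and mesenchymal cells held 72.1% of its UMIs. Lama1 was at 24.3 ± 8.67 in Mes1 and 1.44 in N11, and Lamb3 was as given above. Of the rest, Lamb1 was at 78.8 ± 16.3 in Mes1, and Col5a2, a regulatory chain of type V fibrils, was at 67.8 ± 22.4 in Mes2 and 65.3 ± 12.02 in OEC4, which did not differ beyond their spread. Col6a4, Col6a6 and Col10a1 had fewer than 10 UMIs each in all cells.

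Genes that process, bind or cleave matrix were taken from 4 lists of 28 collagen processing genes, 30 matrix receptors, 24 proteases and inhibitors and 56 other matrix genes. In mesenchymal cells the highest of each list were Pcolce, the enhancer of procollagen cleavage, at 362 ± 65.5 CPM, Sdc4, a heparan sulfate syndecan, at 159, Timp3, a metalloprotease inhibitor, at 596 and Mgp, a calcification inhibitor, at 3272 ± 752. The next in the processing list were Ppib at 348 ± 44.6 and Serpinh1, the collagen chaperone HSP47, at 276 ± 22.4. In mural cells Serpinh1 was at 355, Ppib at 425, the integrin chain Itgb1 at 500, Plat at 350 and vitronectin (Vtn) at 8654. In endothelial cells Ppib was at 312, the lectin-like receptor Cd93 at 251, Timp3 at 338 and Igfbp7 at 2095.

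The comparison between conditions asked whether occlusion or training changed member levels within a class. UMIs were summed over the cells of a class in each library and tested with edgeR's quasi-likelihood test, over all genes that passed a filter on low counts. The filter kept 22 members in endothelial, 20 in mural, 34 in mesenchymal, 36 in ensheathing, 25 in astrocytic and 8 in microglial cells. No member passed an adjusted p of 0.05 in any of the 12 comparisons, and none did with DESeq2. The share of all tested genes that passed was 0.0104% and 0.259% for occlusion and training in endothelial cells, 0.0701% and 0.0526% in mural cells, 0% and 0% in mesenchymal cells, 0.00828% and 0% in ensheathing cells, 0.0191% and 0.0287% in astrocytes and 0% and 0% in microglia. Counts were also simulated with a log2 fold change of 1 for 200 genes and a common spread over genes. The 200 genes were drawn only from genes above a minimum mean CPM in the class. Of these 200 genes the test called 32% in mural and 35% in mesenchymal cells. It called 79% in microglia, 86% in endothelial cells, 91.5% in astrocytes and 98.5% in ensheathing cells. A change could thus be missed, most of all in mural and mesenchymal cells. The shares do not cover tested members of lower level, in which a change could be missed in any class.

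At an unadjusted p under 0.05, members were as follows beside the share of all genes. In endothelial cells 7 of 22 members passed for occlusion, 1 higher and 6 lower (4.94% of all genes), and 4 passed for training, 1 higher and 3 lower (8.43%). In mural cells 1 of 20 passed for each manipulation, both lower (4.43% and 5.64%). In mesenchymal cells 1 of 34 passed for occlusion, lower (3.10%), and 3 for training, 1 higher and 2 lower (4.53%). In ensheathing cells 4 of 36 passed for occlusion, 3 higher and 1 lower (4.12%), and 2 for training, both lower (6.61%). In astrocytes none of 25 passed for occlusion (4.95%) and 3 for training, 1 higher and 2 lower (6.15%), and in microglia none of 8 passed for occlusion (4.23%) and 1 for training, higher (4.79%).

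The 7 endothelial members at an unadjusted p under 0.05 for occlusion were Col4a1, Col4a2, Hspg2, Nid1, Nid2 and Sparc, all lower, and Sparcl1, higher. They were counted in the same 4 libraries, so their values are not independent. Col4a1 was at 248 and 265 CPM in the control libraries, 191 and 192 after occlusion, and 196 and 233 after training, so the occluded libraries lay below both controls. Its log2 fold change for occlusion was −0.42 ± 0.14 (SE, n = 2 and 2; edgeR adjusted p = 0.834). Col4a2 was at 165 and 150 in control and 122 and 115 in occluded libraries (log2 fold change −0.41, edgeR adjusted p = 0.946). Sparc was at 1146 and 1163 in control, 986 and 864 in occluded and 830 and 992 in trained libraries, with log2 fold changes of −0.32 (edgeR adjusted p = 0.929) and −0.34 (edgeR adjusted p = 0.427; −0.48 to −0.22 with 1 library left out). For training Col4a1 had a log2 fold change of −0.27 and Lamb2 one of 0.25 (edgeR adjusted p = 0.645 and 0.735), with −0.39 to −0.14 and 0.042 to 0.42 when 1 library was left out. The control and occluded libraries did not overlap for Col4a1, Col4a2 or Sparc. These members were picked by their values in the same libraries, and the share of all genes without overlap was not counted. The order is therefore no further support for a change.

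Hspg2, named here after its values were seen, was at 78.7 and 79.8 CPM in control, 52.1 and 36.8 in occluded and 51.9 and 56.9 in trained endothelial libraries, with a log2 fold change for occlusion of −0.85 ± 0.21 (edgeR adjusted p = 0.358). Nid1 and Nid2 had log2 fold changes of −0.71 and −0.71, and Sparcl1 one of 0.30. Ensheathing markers, all 6 detected, summed to 2542 and 1860 CPM in the control endothelial libraries, 3284 and 3312 after occlusion and 1889 and 1779 after training, and all 5 endothelial markers to 9269 and 9879, 10566 and 9652, and 7872 and 10358. All 7 mural markers summed to 430 and 541 in control, 403 and 415 in occluded and 528 and 415 in trained libraries. The class also holds EC2, 1124 of its 3648 cells, where ensheathing markers stood at 7988 CPM and endothelial ones at 5276. The part of these markers in the member values was not tested, and in EC1 alone the log2 fold changes for occlusion were −0.39 for Col4a1, −0.48 for Col4a2 and −0.34 for Sparc. Values in EC1 alone were not taken for Hspg2, Nid1, Nid2 or Sparcl1, and Hspg2 and Nid2 had their highest level in OEC1.

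In mural cells the largest fold change among members at 100 CPM or more was that of Col4a1 for training. It was at 393 and 481 CPM in control, 355 and 343 in occluded and 230 and 316 in trained libraries, with a log2 fold change of −0.69 ± 0.21 (edgeR adjusted p = 0.6254), and without trained replicate 2 it passed the threshold (log2 fold change −0.92, edgeR adjusted p = 0.0423). In that fit the trained group was trained replicate 1 alone, assumed to vary like the other groups, and 66 of all 6602 genes tested passed, against 3 of 5705 with every library. Col4a2 was at 209 and 293 in control and 157 and 207 in trained libraries (log2 fold change −0.48, edgeR adjusted p = 0.871; −0.70 to −0.20 with 1 library left out). Lamc1 had a log2 fold change of −0.35 for training (edgeR adjusted p = 0.904), which turned to 0.068 without trained replicate 1. For occlusion the largest were Lama2 at −0.44, Lamb2 at −0.40 and Col4a2 at −0.40, each with an edgeR adjusted p of 1. Leaving out 1 library gave −0.80 to −0.20 for Lama2, −0.66 to −0.21 for Lamb2 and −0.62 to −0.12 for Col4a2. Endothelial markers, all 5 detected, summed to 2038 and 2325 CPM in control, 2927 and 2274 in occluded and 2401 and 1486 in trained mural libraries. All 4 red blood cell markers summed to 11343 CPM in control replicate 2 and to at most 321 in the other 5 libraries. The part of either list was not tested.

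In mesenchymal cells libraries differed widely. For occlusion Lum was at 263 and 155 CPM in control and 148 and 102 in occluded libraries (log2 fold change −0.74), Fn1 at 658 and 629 against 376 and 539 (−0.50), and Col1a1 at 242 and 233 against 328 and 302 (0.41), each with an edgeR adjusted p of 0.999. Leaving out 1 library gave −1.06 to −0.27 for Lum and −0.76 to −0.25 for Fn1, and −0.86 to −0.058 for Fn1 with training. The Fn1 value joined 2 clusters whose Fn1 levels differ, as given above. In Mes1 alone its log2 fold change had the opposite sign, 1.06 for occlusion and 1.27 for training, and the reason was not tested. For training Col9a2 was at 93.6 and 132 in control and 167 and 244 in trained libraries (log2 fold change 0.85 ± 0.27, edgeR adjusted p = 0.894), Col8a2 had a log2 fold change of −0.57 and Fn1 one of −0.39 (edgeR adjusted p = 0.994 for both). Without control replicate 2 the Col8a2 value turned to 0.019. Dcn was at 1498 and 1362 in control, 1182 and 1563 in occluded and 838 and 1821 in trained libraries, so the trained libraries lay on either side of the others.

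Ensheathing cells were the class with the most UMIs of members. The 3 members named in each comparison there, out of 36 tested, had small fold changes. Col23a1 was at 140 and 130 CPM in control and 158 and 177 in occluded libraries (log2 fold change 0.31), Col16a1 had one of 0.26 and Col12a1 one of −0.22, each with an edgeR adjusted p of 0.998. For training the values were −0.26 for Col12a1 (edgeR adjusted p = 0.809), 0.20 for Col23a1 (edgeR adjusted p = 0.789) and 0.10 for Sparc (edgeR adjusted p = 0.904). Leaving out 1 library gave 0.13 to 0.39 for Col16a1 and −0.33 to −0.083 for Col12a1 with occlusion, and −0.51 to −0.023 for Col12a1, 0.073 to 0.33 for Col23a1 and 0.041 to 0.17 for Sparc with training. In OEC4 alone Col12a1 had the opposite sign, 0.082 for occlusion and 0.30 for training. OEC1, the ensheathing cluster with the most Col12a1, held 476 of 2143 and 336 of 1770 ensheathing cells in control and 233 of 1938 and 276 of 1548 in trained libraries, and the part of this in the Col12a1 values was not tested further. In astrocytes Sparc was at 227 and 277 in control and 286 and 321 in trained libraries (log2 fold change 0.27, edgeR adjusted p = 0.796), and Sparcl1 had values of 0.15 for occlusion and 0.19 for training (edgeR adjusted p = 0.992 and 0.853). Leaving out 1 library gave 0.13 to 0.43 for Sparc with training, and 0.057 to 0.24 and 0.10 to 0.29 for Sparcl1 with occlusion and training. Col9a3 in astrocytes was at 97.0 and 114 in control, 111 and 130 in occluded and 94.6 and 116 in trained libraries. In microglia Sparc and Sparcl1 had log2 fold changes between 0.03 and 0.10.

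**Figure D5:**
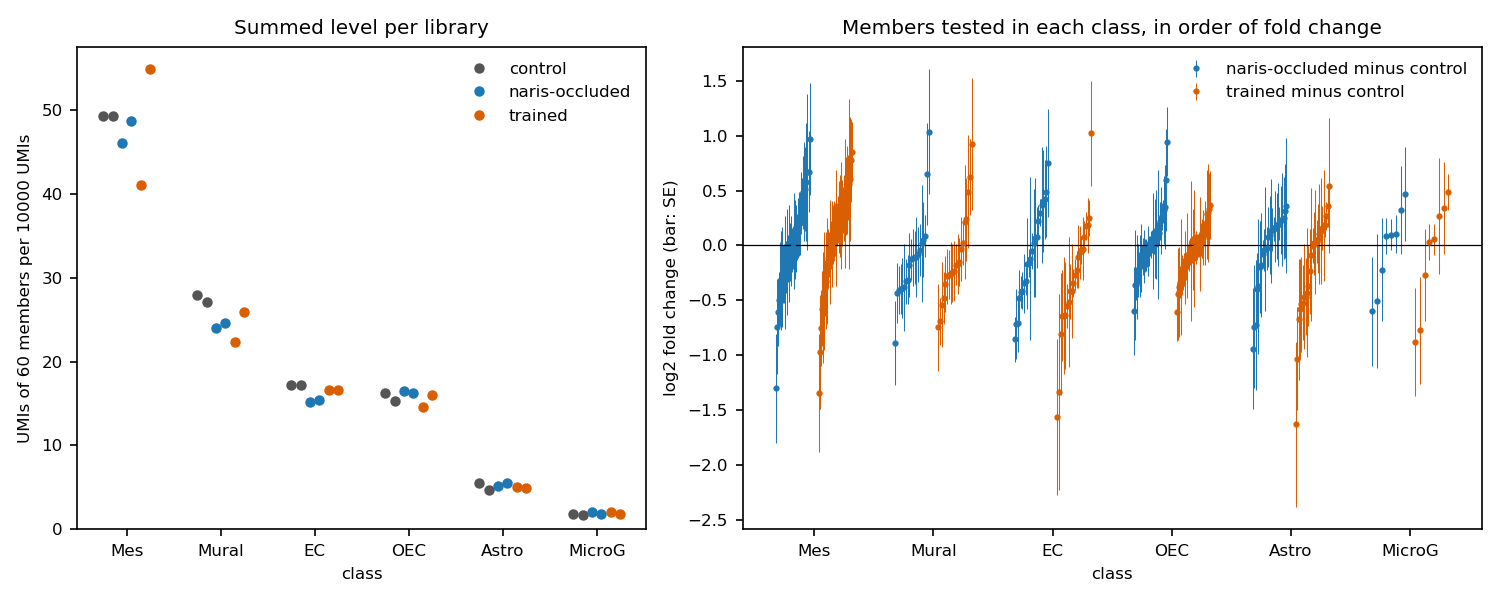
Left, UMIs of the 60 members without Sparc and Sparcl1 per 10000 UMIs in each of 6 libraries for 6 cell classes, coloured by condition; right, log2 fold change with its standard error for each tested member in the 12 comparisons. The library values lie between 41.1 and 54.9 in mesenchymal and between 15.2 and 17.2 in endothelial cells, and no member plotted on the right passed the test.

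The summed share of the 60 members was 17.2 and 17.2 per 10000 UMIs in control, 15.2 and 15.4 in occluded and 16.6 and 16.7 in trained endothelial libraries. In mural cells it was 28.0 and 27.1, 23.9 and 24.6, and 22.3 and 26.0, and in mesenchymal cells 49.3 and 49.3, 46.0 and 48.7, and 41.1 and 54.9. Both control libraries lay above both manipulated ones in endothelial and mural cells, and above both occluded ones in mesenchymal cells. The smallest p that an exact permutation test (two-sided) can give with 2 libraries on each side is 0.3333, so these orders could not pass a threshold. The shares were 16.3 and 15.2, 16.4 and 16.2, and 14.5 and 15.95 in ensheathing cells, where groups overlapped.

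The median log2 fold change of the tested members was −0.08 for occlusion and −0.30 for training in endothelial cells, −0.12 and −0.20 in mural cells, −0.03 and 0.15 in mesenchymal cells, 0.00 and −0.03 in ensheathing cells, 0.10 and −0.00 in astrocytes and 0.09 and 0.04 in microglia. The median of all genes lay between −0.01 and 0.00 in the 12 comparisons. The comparisons of occlusion and training share the control libraries.

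Of the 4 lists, which were chosen with earlier results of these data known, 1 gene passed the test. It did so in endothelial cells with training, where 25 of all 9643 genes tested passed (0.259%), 22 of them higher. Plat, tissue plasminogen activator, which starts the plasmin cascade that cleaves fibrin and matrix, rose in endothelial cells with training, at 199 and 220 CPM in control, 257 and 288 in occluded and 491 and 402 in trained libraries. Its log2 fold change was 1.10 ± 0.15 (SE, edgeR adjusted p = 0.00264), and it was one of 9 genes tested of the 24 in the list of proteases and inhibitors. No gene of the other lists, with 15 of 28 processing genes, 19 of 30 receptors and 25 of 56 other matrix genes tested in endothelial cells, passed in either direction in any class.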

How the data were processed

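Cells from 6 libraries were counted by the authors with Cell Ranger 2.0.0 against mm10 and clustered with Seurat 2.2.1. The deposited table holds raw UMI counts per gene and cell, and the deposited annotation gives each cell's library, cluster and mitochondrial fraction of UMIs; doublets had been removed by the authors according to their methods, and cells were not filtered again. Every barcode held at least 201 genes. The 1123 barcodes without a cluster entered no comparison. UMIs were summed per library and cluster or class. Levels are CPM of these sums. Intervals are exact 95% binomial intervals, and the upper limit of a count of 0 is 3 counts, both covering counting error only.

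Sums per class were fitted in edgeR 4.0.16 (R 4.3.3) with TMM normalization, its filter on low counts and 1 term per group over all 6 libraries, and p-values were adjusted by Benjamini-Hochberg over all tested genes (threshold 0.05). The scripts were tested on simulated data. DESeq2 1.42.0, DESeq2 size factors, no filter, deeper cells (at least 1000 UMIs), a replicate block, 4 libraries only, the largest cluster and leaving out libraries were alternatives. Members were named at 100 CPM or more in some cluster, or, in a comparison with no call, as the 3 with the largest fold change among those at 100 CPM or more in the class. Members and lists were chosen with earlier results of these data known. Promoter sequences came from RefSeq (GRCm38.p6), with Python 3.11.15 for searching motifs. Replicate 1 of each group was Ddx3y-positive and replicate 2 Xist-positive.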

Additional observations from a re-analysis of the deposited data

Results flagged for a closer look

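The 1123 barcodes that carry no cluster, which entered no comparison, held 10.7 UMIs of the 60 members without Sparc and Sparcl1 per 10000 UMIs, against 9.34 in annotated cells.

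The share of all 62 members, Sparc and Sparcl1 included, moved one way in astrocytes and the opposite way in endothelial cells. Pairs of classes were flagged here because manipulated and control libraries did not overlap in either class and the signs were opposite. The opposite signs are therefore no further support for a difference. Astrocytes were at 33.7 and 35.8 per 10000 UMIs in control, 39.4 and 37.9 in occluded and 38.3 and 39.7 in trained libraries, and endothelial cells at 35.1 and 35.2, 33.8 and 31.5, and 30.7 and 32.8. The change in astrocytes minus that in endothelial cells was 6.398 for occlusion (3.87 and −2.52) and 7.70 for training (4.27 and −3.44), and the difference was not tested. Without Sparc and Sparcl1 the astrocyte libraries overlapped, at 5.45 and 4.68 in control, 5.17 and 5.49 in occluded and 5.06 and 4.94 in trained libraries. In astrocytes the astrocyte markers summed to 7934 and 7975 CPM in control, 8710 and 8731 in occluded and 8266 and 8963 in trained libraries. Ensheathing markers there summed to 4124 and 3812, 3495 and 4293, and 3032 and 3289. The part of these markers in the astrocyte share was not tested. For Sparc with training, the log2 fold change in ensheathing cells minus that in endothelial cells was 0.44 (0.10 and −0.34, the first turning to −0.0084 in OEC4 alone), and in astrocytes minus endothelial cells 0.61 (0.27 and −0.34), also untested. These classes share the same 2 control libraries. No library was flagged as standing apart from the other 5 in any of the 41 values examined for that. The red blood cell markers of mural cells, given above, were far higher in control replicate 2 than in the other 5.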

How the results depend on the processing

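Of 156 recounts of members called, 155 gave the same result. In mural cells with training, leaving out libraries gave 0 to 1 members called, the 1 being Col4a1 without trained replicate 2, a fit with 1 trained library in which 66 of 6602 genes were called. Of 441 refitted fold changes of named genes, 419 kept direction and side of the threshold and 21 changed sign, none of them called. In the largest cluster alone Fn1 in mesenchymal cells was 1.06 for occlusion and 1.27 for training, Col12a1 in ensheathing cells 0.082 and 0.30, Sparc −0.0084 in ensheathing cells with training and 0.015 in astrocytes with occlusion. Col9a3 in astrocytes with training was 0.0020 by DESeq2, 0.0011 with DESeq2 size factors, 0.0057 without the filter and 0.039 in cells of at least 1000 UMIs, where Sparcl1 in microglia with training was −0.050. Leaving out libraries gave ranges across 0 for Lamc1 in mural cells (−0.82 to 0.068) and Col8a2 in mesenchymal cells (−1.02 to 0.019) with training, for Sparc (−0.22 to 0.072) with occlusion and Col9a3 (−0.14 to 0.15) with training in astrocytes, and in microglia for Sparcl1 (−0.0018 to 0.18) and Sparc (−0.10 to 0.26) with occlusion and Sparcl1 (−0.21 to 0.23) and Sparc (−0.10 to 0.20) with training. Plat in endothelial cells was called under every alternative, from 0.94 to 1.23 (adjusted p 7.7e-09 to 0.0263). Of 290 recomputed levels 277 stayed within 1 SD, and 26 to 29 of 29 members kept their highest cluster; Col4a1, Nid1, Col27a1, Lamb2 and Col12a1 did not under at least 1 alternative. With mitochondrial UMIs left out of the total, the share of the 60 members per 10000 was 18.1 in endothelial, 27.9 in mural, 54.6 in mesenchymal, 17.7 in ensheathing and 5.93 in astrocytic cells. With the replicate block no member was called (0 in each comparison). Calls over all genes for training went from 25 to 51 in endothelial, 0 to 14 in ensheathing, 3 to 7 in astrocytic and 0 to 3 in mesenchymal cells. For occlusion they went from 1 to 5 in endothelial, 4 to 5 in mural and 0 to 1 in mesenchymal and in microglial cells. The other comparisons did not change. Same-numbered libraries share their Xist and Ddx3y pattern as well as a number, and the labels give no shared animal. Deviations of same-numbered libraries correlated at 0.034 to 0.468. The fewest cells of the 6 classes tested were mural (927) and mesenchymal (883).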
